A study of Homo sapiens with 12 samples.

Results

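ATF4 is the transcription factor of the integrated stress response, and the genes described here are ATF4 itself and genes classed with it as amino acid genes: regulators of the stress response, enzymes that make amino acids and load folate with one-carbon units, amino acid transporters, cytosolic tRNA synthetases and the tRNA export factor XPOT. The 36 genes were chosen by name as pathway genes and not by a threshold on a measured value, and all 36 were found among the 21996 genes of the deposited table. Earlier results of these data were known when the genes were chosen. They fall into 8 stress regulators, 6 amino acid synthesis enzymes, 3 one-carbon enzymes, 6 transporters and 13 genes of tRNA charging and export.

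RNA was measured on 12 arrays from TF-1, an erythroleukaemia cell line of human origin whose growth depends on the cytokine GM-CSF. Per the labels, the 4 groups of 3 biological replicates were cells carrying GNB1 K89E, a mutant G protein beta subunit, in the retroviral vector pMSCVpuro, sampled 12 hours after GM-CSF was withdrawn; K89E cells kept in GM-CSF; cells carrying the empty pMSCV-puro vector 12 hours after withdrawal; and empty vector cells kept in GM-CSF. All groups carry a vector of this kind, no group carries unmutated GNB1 in it, and whether a line is 1 clone or a pool is not given in the sources used here. A difference between the lines therefore cannot be told apart from other differences of these cell populations. The table pairs no symbols with its Ensembl IDs, and those of the 36 genes come from the list that defines the set, so the level of GNB1 and of TF-1 marker genes was not analysed here. Values are normalized intensities, and array medians lay between 172.6 and 179.9.

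When amino acids run short or the endoplasmic reticulum is stressed, kinases phosphorylate the translation factor eIF2. Most translation slows while translation of the ATF4 mRNA increases, so ATF4 activity can change without a change of its mRNA. ATF4 pairs with C/EBP proteins at C/EBP-ATF response elements of genes that import, make and charge amino acids. Growth factor signalling through mTORC1 also raises ATF4, and in growing cells this programme supplies amino acids for protein synthesis.

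The core of the C/EBP-ATF response element, TGATGNAA, was searched on both strands in the RefSeq promoter windows (GRCh38.p14, 250 bases before to 50 after each annotated start), to show which genes of the set carry the letters ATF4 is known to read. Windows were listed for 30 of the 36 genes, and 14 of the 30 held at least 1 match, or 46.7%, against 4.46% of the 27305 genes with a window. By window the shares were 29.2% of 48 against 3.62% of 35116. Among the cytosolic synthetases, 7 of 10 with a window held one. In 7 of the 14 genes the match began within 15 bases of an annotated start. The promoter of ASNS, whose nutrient-sensing element is the textbook case, is printed below as the 250 bases before the start at chr7:97872409-97872658 on the minus strand, with the match in capitals.
ASNS: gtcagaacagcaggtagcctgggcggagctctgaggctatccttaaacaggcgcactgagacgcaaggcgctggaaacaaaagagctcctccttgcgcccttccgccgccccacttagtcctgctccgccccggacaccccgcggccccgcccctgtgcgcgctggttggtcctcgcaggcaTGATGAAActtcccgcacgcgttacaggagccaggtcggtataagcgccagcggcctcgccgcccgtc

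The other 13 matches are shown with up to 10 bases on either side, on the strand of the gene, so that a match lying on the opposite strand reads TTNCATCA. Capitals mark the match. The first 7 are from genes of tRNA charging.
CARS, chr11:3057408-3057435, minus strand: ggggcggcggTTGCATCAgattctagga
MARS, chr12:57488054-57488081, plus strand: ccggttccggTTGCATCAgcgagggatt
TARS, chr5:33440957-33440984, plus strand: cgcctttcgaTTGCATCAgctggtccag
IARS, chr9:92293693-92293720, minus strand: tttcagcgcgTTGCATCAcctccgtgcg
NARS, chr18:57621805-57621832, minus strand: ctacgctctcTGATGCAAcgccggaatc
GARS, chr7:30594835-30594862, plus strand: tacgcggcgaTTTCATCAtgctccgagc
AARS, chr16:70289676-70289703, minus strand: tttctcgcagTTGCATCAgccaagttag
SLC7A1, chr13:29595664-29595691, minus strand: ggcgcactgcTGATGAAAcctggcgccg
SLC1A5, chr19:46784894-46784921, minus strand: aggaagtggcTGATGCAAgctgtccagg
SLC3A2, chr11:62881726-62881748, plus strand: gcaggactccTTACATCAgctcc
SLC1A4, chr2:64989382-64989409, plus strand: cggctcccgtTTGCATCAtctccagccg
CEBPG, chr19:33374061-33374088, plus strand: gcgcggcgtcTGATGCAAcctgccggca
CHAC1, chr15:40953252-40953279, plus strand: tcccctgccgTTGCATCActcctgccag

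The letters TTGCATCA were held in the same orientation by CARS, MARS, TARS, SLC1A4, IARS, AARS and CHAC1, at -2, -4, 2, -7, -13, -187 and -209 bases from the start in that order. A match is a description of the letters in a window, and other sites of these genes were not searched. The genes were chosen by name as pathway genes of ATF4, so their larger share of matches is not an independent result.

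Withdrawal of GM-CSF lowered most of these genes in both lines. In K89E cells 25 of the 36 fell and 0 rose, and in empty vector cells 21 fell and 0 rose (limma, adjusted p under 0.05 over all 21996 genes). The 21 genes that fell in empty vector cells all fell in K89E cells too. The share of all genes that fell in both lines is not given here, so this overlap is not read as particular to the set. Those that fell in both lines include 5 of 6 transporters, the 3 serine synthesis enzymes and 8 of 12 cytosolic synthetases, while ATF4 and the stress genes DDIT3 and DDIT4 were not called and had positive changes. In K89E cells the called genes ranged from EPRS, which fell by 7.21%, to SLC7A11, which fell by 30.5%, and in empty vector cells from PSPH, which fell by 7.69%, to SLC7A11, which fell by 45.4%.

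Over all genes, 17.9% were called in K89E cells, 10.6% lower and 7.29% higher, and 20.4% in empty vector cells, 11.7% lower and 8.73% higher. Of the set, 34 genes lie at or above the median level of the table, where calls are more frequent. Among all genes at or above that median, 20.3% were called lower in K89E cells and 22.3% in empty vector cells. By mean level, every cytosolic synthetase of the set but CARS lies at or above 90.4% of all genes. These shares are therefore not matched to the level of the set. All changes and differences below are in log2 units. The median change of the set was -0.215 in K89E cells and -0.161 in empty vector cells, where that of all genes was 0.017 and 0.013. The arrays of both conditions did not overlap, with withdrawn arrays lower, for 25 genes of the set in each line, against 16.2% of all genes in K89E cells and 18.4% in empty vector cells. Across the set, 35 of 36 changes had the same sign in both lines, and the share of all genes is not given here. The Pearson correlation between the changes of both lines was 0.889 across the 36 genes, against 0.728 across all genes. The responses of both lines share no array, but genes are not independent replicates.

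**Figure D1:**
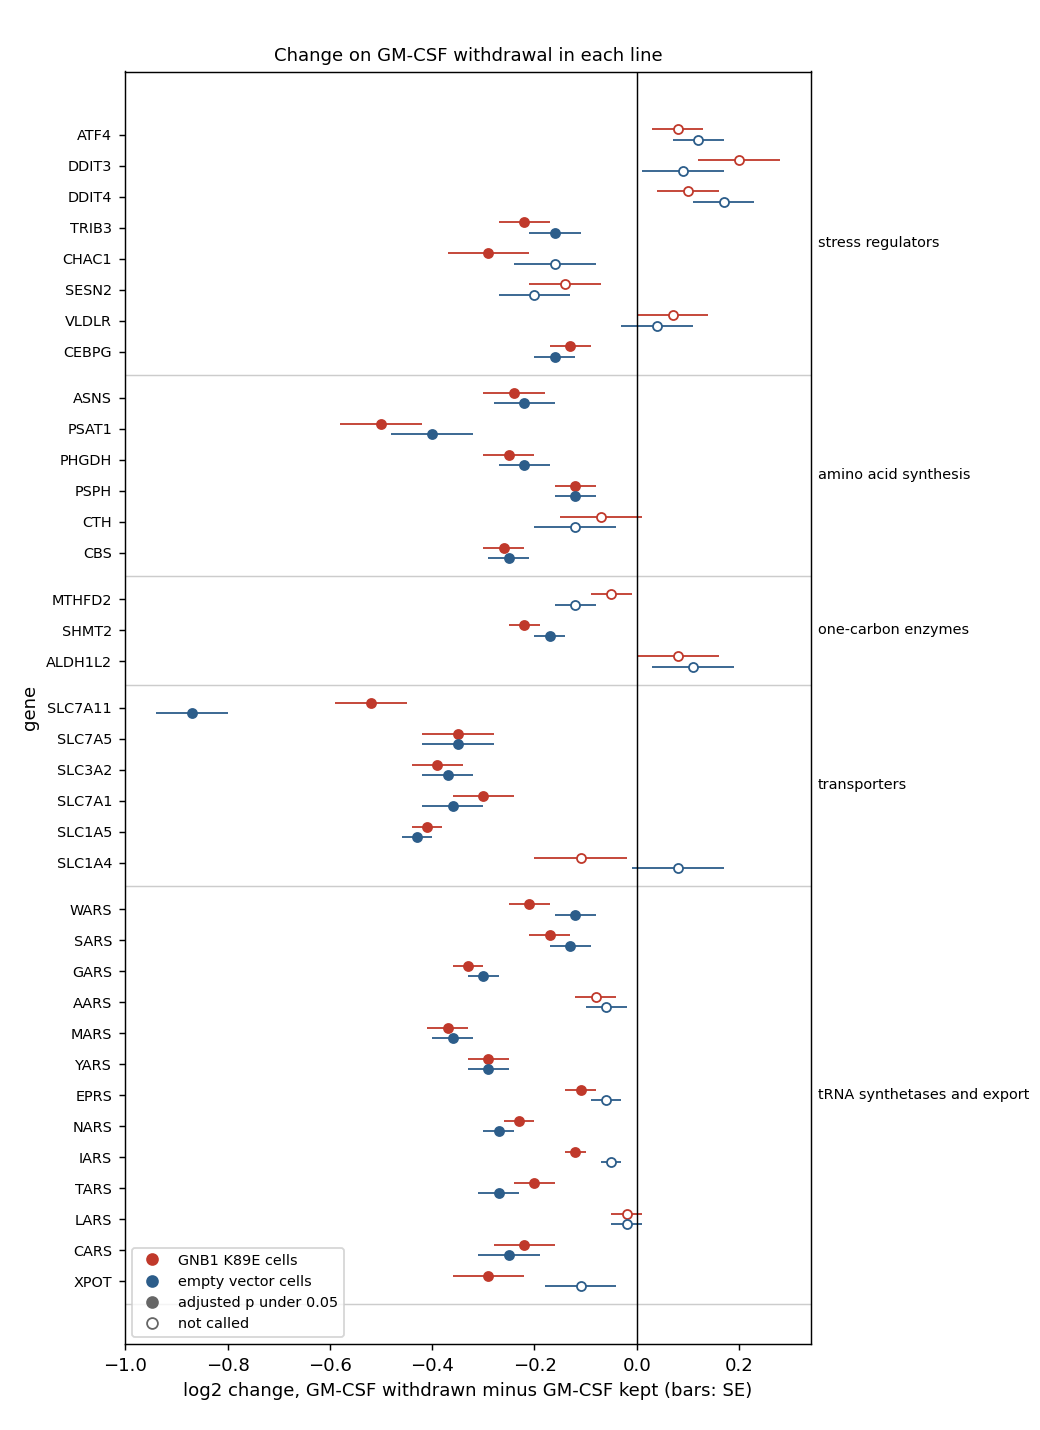
Log2 change on GM-CSF withdrawal (withdrawn minus GM-CSF kept, bars are SE) for each of the 36 genes, K89E cells above empty vector cells in each row, filled where called. 25 points are filled in K89E cells and 21 in empty vector cells, all left of 0, and SLC7A11 in empty vector cells lies farthest left at -0.87.

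**Figure D2:**
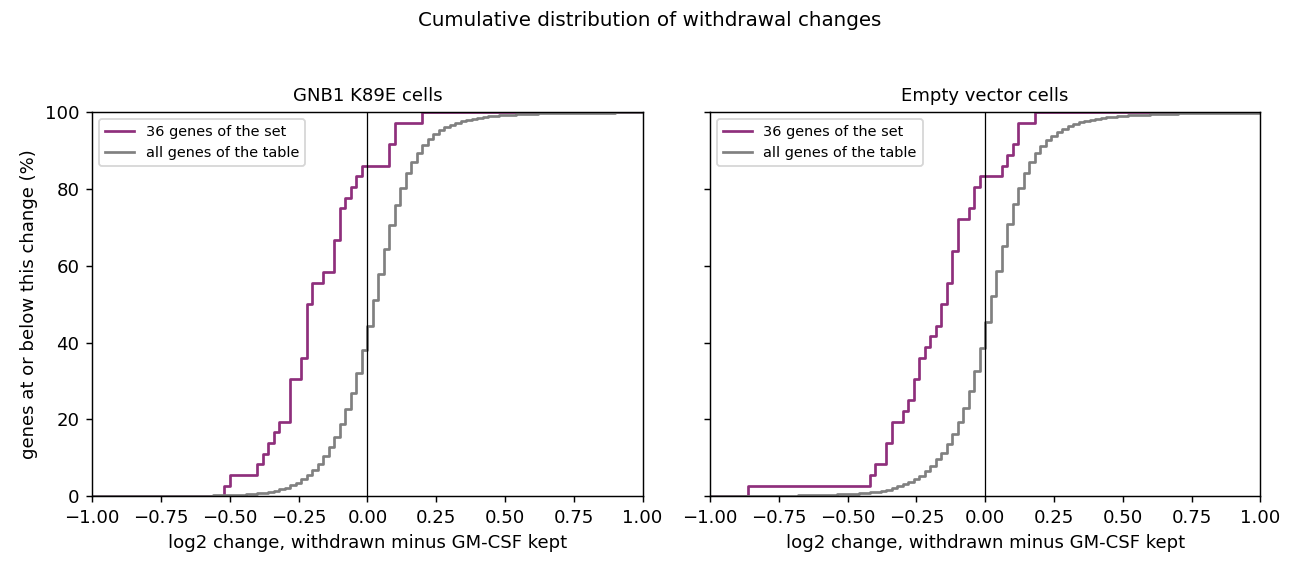
Percent of genes (y axis) at or below a given log2 change on withdrawal (x axis), for the 36 genes and for all 21996, in K89E cells (left) and empty vector cells (right). The curve of the set lies left of that of all genes, with medians of -0.215 and 0.017 in K89E cells and -0.161 and 0.013 in empty vector cells.

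ATF4 (ENSG00000128272_at) was not called in any comparison. Its intensities were 1485, 1476 and 1428 in withdrawn K89E cells, against 1293, 1391 and 1483 in K89E cells with GM-CSF. They were 1458, 1479 and 1624 in withdrawn empty vector cells, against 1368, 1367 and 1472 with GM-CSF. The groups overlapped in both lines. The log2 change was 0.08 (95% interval -0.03 to 0.19, limma adjusted p = 0.37) in K89E cells and 0.12 (95% interval 0.00 to 0.23, limma adjusted p = 0.14) in empty vector cells.

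Of the other stress regulators, TRIB3 and CEBPG fell in both lines and CHAC1 was called in K89E cells. TRIB3 is a pseudokinase that feeds back on ATF4. Its intensities were 284, 290 and 286 in withdrawn and 354, 323 and 327 in GM-CSF arrays of K89E cells, and 289, 293 and 294 against 313, 329 and 337 in empty vector cells, with no overlap in either line. Its log2 changes were -0.22 (SE 0.05, limma adjusted p = 0.0048) in K89E and -0.16 (SE 0.05, limma adjusted p = 0.027) in empty vector cells. The call in empty vector cells was lost without empty vector replicate 1 or 2 withdrawn, or 2 or 3 with GM-CSF, at adjusted p = 0.0637 to 0.125.

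CEBPG (ENSG00000153879_at) encodes a C/EBP partner of ATF4. It had 969, 893 and 878 in withdrawn and 1026, 994 and 978 in GM-CSF arrays of K89E cells, and 943, 1009 and 1032 against 1098, 1122 and 1116 in empty vector cells. Withdrawn arrays were below all GM-CSF arrays in each line, by a narrow gap in K89E cells. The changes were -0.13 (SE 0.04, limma adjusted p = 0.049) in K89E and -0.16 (SE 0.04, limma adjusted p = 0.014) in empty vector cells. In K89E cells the call was lost in 9 of 12 fits that left out 1 array, namely any GM-CSF array, replicate 2 of either withdrawn group or K89E withdrawn replicate 3 (adjusted p = 0.0614 to 0.162). In empty vector cells it was lost without withdrawn replicate 1 or GM-CSF replicate 2 (0.0682 and 0.0552).

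CHAC1, an enzyme that degrades glutathione, had 165, 155 and 169 in withdrawn and 193, 204 and 199 in GM-CSF arrays of K89E cells, a change of -0.29 (SE 0.08, limma adjusted p = 0.016). Its arrays overlapped in empty vector cells, with 186, 174 and 166 withdrawn and 174, 216 and 199 with GM-CSF (-0.16, limma adjusted p = 0.18). The test of the difference between both responses gave -0.13 (limma adjusted p = 0.98), so the 2 lines were not shown to differ. The call in K89E cells was lost without withdrawn or GM-CSF replicate 2 (adjusted p = 0.0661 and 0.0579), and the gene was called in empty vector cells without GM-CSF replicate 1 (0.035).

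The other 4 stress genes were called in neither line. DDIT3, which encodes the stress factor CHOP, had changes of 0.20 (limma adjusted p = 0.13) in K89E and 0.09 (0.56) in empty vector cells. Without K89E withdrawn replicate 3 its adjusted p in K89E cells was 0.0405. DDIT4, an inhibitor of mTORC1, had 257, 246 and 260 in withdrawn empty vector arrays against 217, 227 and 237 with GM-CSF, which did not overlap. Its change was 0.17 (limma adjusted p = 0.056), and 0.10 (0.30) in K89E cells. Arrays with withdrawal higher and no overlap held for 1 gene of the set, this one, in empty vector cells, against 17.3% of all genes. Its adjusted p there was 0.0418 without K89E withdrawn replicate 1 and 0.0395 without replicate 2. SESN2, a stress-induced inhibitor of mTORC1 signalling, had changes of -0.14 in K89E cells (limma adjusted p = 0.20) and -0.20 in empty vector cells (0.052). Its adjusted p in empty vector cells was 0.0332 to 0.0457 without empty vector withdrawn replicate 3, K89E withdrawn replicate 1 or 2 or K89E GM-CSF replicate 1. With all arrays, SESN2 was called lower there after quantile normalization (0.0311), after centring on array medians (0.0305), with array weights (0.0107), in the fit on the compared groups only (0.0454) and without the dimmest 33.3% of genes (0.0372). DDIT4 was called higher there without those dimmest genes (0.0421). VLDLR, a lipoprotein receptor, and ALDH1L2, a mitochondrial folate enzyme, are the 2 genes of the set among the dimmest 33.3% of the table, and changes of VLDLR were 0.07 in K89E and 0.04 in empty vector cells.

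Amino acid synthesis fell for 5 of 6 enzymes in each line. The serine pathway runs through PHGDH, PSAT1 and PSPH. PSAT1 (ENSG00000135069_at), its transaminase, had 411, 354 and 364 in withdrawn and 513, 541 and 540 in GM-CSF arrays of K89E cells, and 344, 442 and 393 against 502, 523 and 522 in empty vector cells. The withdrawn arrays were lower without overlap, and spread more than the GM-CSF arrays in both lines. In log2 units PSAT1 fell by 0.50 in K89E cells (SE 0.08, limma adjusted p = 4.0e-04) and by 0.40 in empty vector cells (SE 0.08, limma adjusted p = 0.0016).

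PHGDH (ENSG00000092621_at), the first enzyme of the pathway, had 718, 644 and 619 in withdrawn and 816, 778 and 766 in GM-CSF arrays of K89E cells, and 724, 757 and 765 against 875, 882 and 854 in empty vector cells. It fell without overlap in each line, by 0.25 log2 units in K89E (SE 0.05, limma adjusted p = 0.0023) and 0.22 in empty vector cells (SE 0.05, limma adjusted p = 0.0055). PSPH, the last enzyme, had smaller changes of -0.12 in both lines (limma adjusted p = 0.038 in K89E and 0.044 in empty vector cells). The PSPH call was lost in K89E cells without any 1 K89E withdrawn array, GM-CSF replicate 2 or 3 of the same line or GM-CSF replicate 1 or 3 of empty vector cells (adjusted p = 0.0515 to 0.131). In empty vector cells it was lost without withdrawn replicate 1 or 2, any 1 GM-CSF array, K89E withdrawn replicate 1 or 3 or K89E GM-CSF replicate 3 (0.0522 to 0.194).

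ASNS, asparagine synthetase, had 357, 318 and 313 in withdrawn and 415, 368 and 381 in GM-CSF arrays of K89E cells, and 302, 311 and 307 against 352, 372 and 349 in empty vector cells. Replicate 1 was the highest of both K89E groups, and the groups still did not overlap. The changes were -0.24 (SE 0.06, limma adjusted p = 0.011) in K89E and -0.22 (SE 0.06, limma adjusted p = 0.014) in empty vector cells. Without K89E withdrawn replicate 3 or K89E GM-CSF replicate 1 the K89E call was lost (adjusted p = 0.0503 and 0.0558), and the call in empty vector cells was lost when their GM-CSF replicate 2 was left out (0.0728).

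The transsulfuration enzymes CBS and CTH make cysteine from homocysteine. CBS fell by 0.26 (SE 0.04, limma adjusted p = 5.3e-04) in K89E and by 0.25 (SE 0.04, limma adjusted p = 5.2e-04) in empty vector cells, and CTH was not called (-0.07 and -0.12, limma adjusted p = 0.61 and 0.35). Among the mitochondrial one-carbon enzymes, SHMT2, which splits serine, had 1603, 1689 and 1628 in withdrawn and 1987, 1917 and 1843 in GM-CSF arrays of K89E cells, and 1712, 1728 and 1708 against 1926, 1925 and 1930 in empty vector cells. SHMT2 fell by 0.22 in K89E (SE 0.03, limma adjusted p = 1.9e-04) and by 0.17 in empty vector cells (SE 0.03, limma adjusted p = 0.0013). MTHFD2, the next enzyme, was not called, at -0.05 (limma adjusted p = 0.46) in K89E and -0.12 (0.065) in empty vector cells, where its adjusted p was 0.0217 without withdrawn replicate 1. With all arrays, MTHFD2 was called lower in empty vector cells after centring on array medians (0.0148), with array weights (0.022), with the replicate block (0.0306) and without the dimmest 33.3% of genes (0.0431). ALDH1L2 had intensities of 22.9 to 28.5 over all arrays and changes of 0.08 and 0.11 (limma adjusted p = 0.58 and 0.45).

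SLC7A11, a transporter, had the largest change of the set in each line. In each line 5 of the 6 transporters fell, with a median log2 change over the 6 of -0.370 in K89E and -0.364 in empty vector cells. SLC7A11 (ENSG00000151012_at), the cystine-glutamate exchanger, had 551, 473 and 492 in withdrawn and 722, 706 and 750 in GM-CSF arrays of K89E cells, and 369, 450 and 422 against 723, 793 and 749 in empty vector cells. GM-CSF arrays of both lines overlapped, and each withdrawn K89E array lay above each withdrawn empty vector array. In log2 units SLC7A11 fell by 0.52 in K89E cells (SE 0.07, limma adjusted p = 1.4e-04) and by 0.87 in empty vector cells (SE 0.07, limma adjusted p = 1.2e-06).

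SLC3A2 (ENSG00000168003_at) is the heavy chain that SLC7A11 and SLC7A5 both need at the cell surface. It had 1228, 1013 and 1123 in withdrawn and 1531, 1424 and 1452 in GM-CSF arrays of K89E cells, and 1165, 1132 and 1155 against 1477, 1521 and 1454 in empty vector cells. The arrays did not overlap in either line. SLC3A2 fell by 0.39 (SE 0.05, limma adjusted p = 1.7e-04) in K89E and 0.37 (SE 0.05, limma adjusted p = 2.2e-04) in empty vector cells.

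SLC7A5 (ENSG00000103257_at), the light chain of the leucine transporter, had 1675, 1365 and 1442 in withdrawn and 2110, 1749 and 1833 in GM-CSF arrays of K89E cells, and 1576, 1547 and 1584 against 1962, 2095 and 1955 in empty vector cells. Its K89E arrays spread more than the empty vector arrays, and withdrawn arrays stayed below GM-CSF arrays in each line. The falls were 0.35 in both lines (SE 0.07, limma adjusted p = 0.0033 in K89E and 0.0023 in empty vector cells).

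SLC1A5 (ENSG00000105281_at), the main glutamine importer of many dividing cells, had 2434, 2346 and 2500 in withdrawn and 3122, 3336 and 3230 in GM-CSF arrays of K89E cells, and 2223, 2107 and 2131 against 2837, 2983 and 2873 in empty vector cells. It fell by 0.41 in K89E (SE 0.03, limma adjusted p = 2.7e-06) and by 0.43 in empty vector cells (SE 0.03, limma adjusted p = 1.2e-06), and the groups did not overlap in either line.

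SLC7A1 (ENSG00000139514_at), the carrier of arginine and lysine, had 1251, 1076 and 1211 in withdrawn and 1566, 1327 and 1462 in GM-CSF arrays of K89E cells, and 1620, 1693 and 1652 against 2118, 2172 and 2088 in empty vector cells. All 4 groups were separate, with K89E arrays below empty vector arrays in each condition. Withdrawal lowered it by 0.30 (log2 change -0.30, SE 0.06, limma adjusted p = 0.0023) in K89E and 0.36 (log2 change -0.36, SE 0.06, limma adjusted p = 4.5e-04) in empty vector cells.

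SLC1A4, a carrier of serine and other small neutral amino acids, was the 1 gene of the set whose change differed in sign between the lines. Its log2 change was -0.11 (limma adjusted p = 0.45) in K89E and 0.08 (0.62) in empty vector cells, neither of them called. The difference of responses was not called either (-0.19, limma adjusted p = 0.95).

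**Figure D3:**
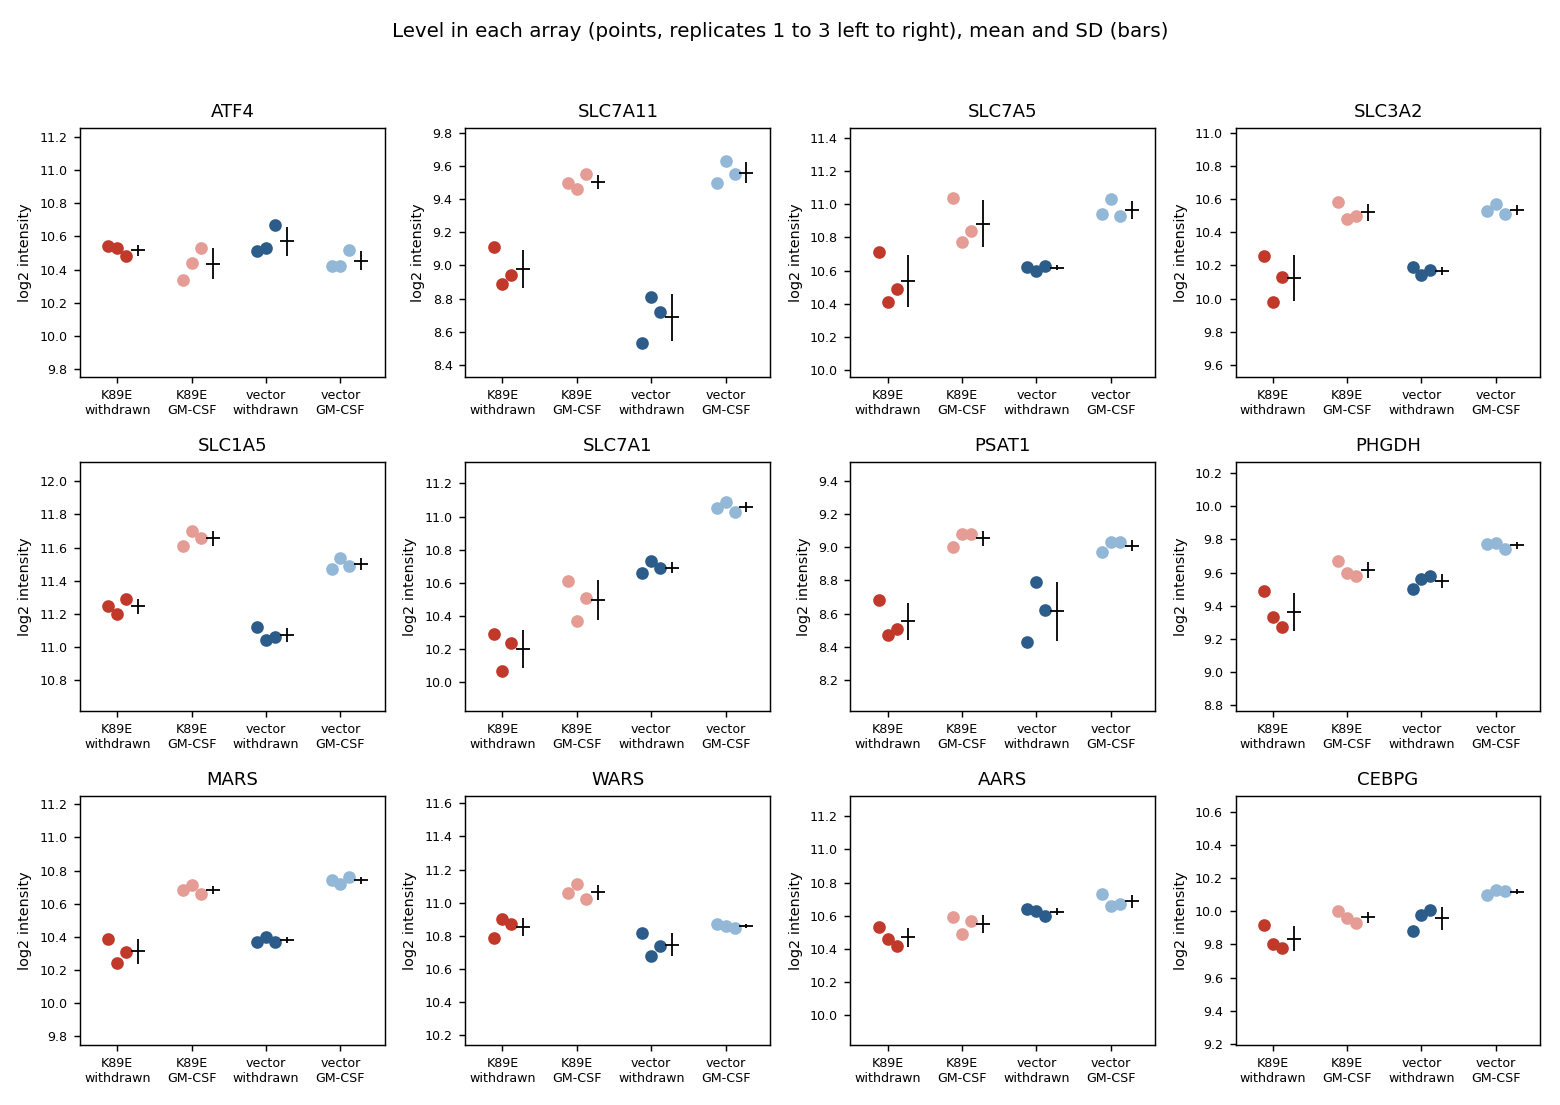
Log2 intensity in each array for 12 genes, with K89E withdrawn, K89E with GM-CSF, empty vector withdrawn and empty vector with GM-CSF from left to right; bars are mean and SD of 3 arrays, and every panel spans the same range. Withdrawn points lie below GM-CSF points in each line for the transporters, PSAT1, PHGDH and MARS, while those of ATF4 overlap, and for SLC7A1 the K89E points lie below the empty vector points.

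Cytosolic tRNA synthetases, which attach amino acids to their tRNAs, fell for 10 of 12 genes in K89E cells and 8 of 12 in empty vector cells. Their median log2 changes were -0.207 in K89E and -0.187 in empty vector cells, and all 12 had negative changes in each line. Of all 21996 genes, 9751 had negative changes in K89E and 9958 in empty vector cells. MARS (ENSG00000166986_at), the methionine enzyme, had 1343, 1208 and 1272 in withdrawn and 1636, 1672 and 1623 in GM-CSF arrays of K89E cells, and 1322, 1353 and 1327 against 1705, 1687 and 1731 in empty vector cells. MARS fell by 0.37 (SE 0.04, limma adjusted p = 8.8e-06) in K89E and 0.36 (SE 0.04, limma adjusted p = 7.6e-06) in empty vector cells. In the RefSeq table its span overlaps that of the neighbouring DDIT3, which was not called. GARS, the glycine enzyme, had 2963, 2729 and 2874 in withdrawn and 3525, 3622 and 3596 in GM-CSF arrays of K89E cells, and 2764, 2804 and 2774 against 3424, 3431 and 3421 in empty vector cells, and fell by 0.33 and 0.30 (SE 0.03 each, limma adjusted p = 3.9e-06 and 5.0e-06). YARS, the tyrosine enzyme, fell by 0.29 in both lines.

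The asparagine enzyme NARS fell by 0.23 in K89E and 0.27 in empty vector cells, the threonine enzyme TARS by 0.20 and 0.27, and the cysteine enzyme CARS by 0.22 and 0.25, all 3 with limma adjusted p of 0.014 or lower. The CARS call in K89E cells was lost without withdrawn replicate 3 or GM-CSF replicate 1 (adjusted p = 0.0546 and 0.0662). SARS, the serine enzyme, fell by 0.17 and 0.13 (limma adjusted p = 0.0072 and 0.029). Its call in empty vector cells was lost without withdrawn replicate 2 or 3 or GM-CSF replicate 1 or 3 (0.0646 to 0.138). IARS, the isoleucine enzyme, and EPRS, which charges both glutamate and proline tRNAs, were called in K89E cells, at -0.12 and -0.11 (limma adjusted p = 0.0046 and 0.034), and not in empty vector cells, at -0.05 and -0.06 (limma adjusted p = 0.17 and 0.28), where IARS was called after centring on array medians (0.027). Their differences between the lines were not called (-0.06 and -0.05, limma adjusted p = 0.94 and 0.98). The EPRS call was lost without K89E withdrawn replicate 2 or 3 or any 1 K89E GM-CSF array (adjusted p = 0.0546 to 0.141).

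WARS (ENSG00000140105_at), the tryptophan enzyme, which is also interferon-induced, had 1766, 1910 and 1875 in withdrawn and 2139, 2204 and 2074 in GM-CSF arrays of K89E cells, and 1802, 1637 and 1705 against 1874, 1853 and 1842 in empty vector cells. It fell by 0.21 in K89E (SE 0.04, limma adjusted p = 0.0017) and by 0.12 in empty vector cells (SE 0.04, limma adjusted p = 0.049). The call in empty vector cells was lost in 8 of the 12 fits that left out 1 array, which omitted empty vector withdrawn replicate 2 or 3, any 1 empty vector GM-CSF array, K89E withdrawn replicate 3 or K89E GM-CSF replicate 1 or 2 (adjusted p = 0.0513 to 0.209).

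Both other synthetases were not called on withdrawal. LARS, the leucine enzyme, had changes of -0.02 in each line, with 95% intervals of -0.09 to 0.05. AARS (ENSG00000090861_at), the alanine enzyme, had 1474, 1408 and 1371 in withdrawn and 1543, 1442 and 1520 in GM-CSF arrays of K89E cells, which overlapped, and 1594, 1583 and 1555 against 1695, 1613 and 1628 in empty vector cells, which did not. Its changes were -0.08 and -0.06 (limma adjusted p = 0.13 and 0.29). XPOT, which carries tRNAs out of the nucleus, had 2649, 2268 and 2147 in withdrawn and 2710, 3164 and 2773 in GM-CSF arrays of K89E cells, a fall of 0.29 (SE 0.07, limma adjusted p = 0.0081). Its empty vector arrays, at 2546, 2634 and 2674 withdrawn and 2868, 2689 and 2942 with GM-CSF, did not overlap either. In empty vector cells it was not called (-0.11, limma adjusted p = 0.31) except in the fit on the compared groups only (0.0471), and the difference between the lines was -0.18 (limma adjusted p = 0.93).

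Genes with and without a match to TGATGNAA were both found among those that fell. Of the 14 with a match, 12 fell in K89E and 10 in empty vector cells, and of the 16 with windows but no match, 9 and 7 fell. AARS and SLC1A4, printed above, hold a match and were not called in either line, and PSAT1, PHGDH, SLC7A5, CBS and WARS fell without a match in these windows. SLC7A11, PSPH, SHMT2, ALDH1L2, YARS and LARS had no window, so they were not searched and are in neither group.

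Between the lines, few genes of the set differed. After withdrawal 2 were higher and 3 lower in K89E cells than in empty vector cells, and with GM-CSF kept again 2 and 3. These 5 of 36 in each condition stand against 12.5% of all genes called after withdrawal (6.52% higher, 6.01% lower) and 9.61% with GM-CSF (5.21% higher, 4.39% lower), a share near that of the whole table. Calls were more frequent among all genes at or above the median level, where 34 of the 36 lie. There 10.2% were higher and 10.6% lower after withdrawal, and 8.95% and 8.15% with GM-CSF. The median log2 difference of the set was -0.040 after withdrawal and -0.015 with GM-CSF, against -0.007 and -0.006 for all genes. SLC7A1 and AARS were lower and SLC1A5 was higher in K89E cells in both conditions, and 29 genes were called in neither. These comparisons use the arrays of the withdrawal comparisons, so they are not independent of them.

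SLC7A1 had the largest difference of the set in both conditions. It was lower in K89E cells by 0.49 after withdrawal (log2 difference -0.49, SE 0.06, limma adjusted p = 6.2e-05), at 0.711 times the empty vector level. With GM-CSF the log2 difference was -0.55 (SE 0.06, limma adjusted p = 3.5e-05), or 0.681 times. In neither condition did its arrays overlap. SLC1A5 was higher in K89E cells, by 0.17 after withdrawal (SE 0.03, limma adjusted p = 0.0040) and by 0.16 with GM-CSF (SE 0.03, limma adjusted p = 0.0091), or 1.13 and 1.11 times. The call with GM-CSF was lost without K89E GM-CSF replicate 2 (adjusted p = 0.0503).

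SLC7A11 was higher in K89E cells after withdrawal by 0.29 (SE 0.07, limma adjusted p = 0.013), or 1.22 times. With GM-CSF the difference was -0.06 (95% interval -0.21 to 0.09, limma adjusted p = 0.76). The call after withdrawal was lost without K89E withdrawn replicate 1, the highest of its group (0.23, adjusted p = 0.0611), and in the fit on these 2 groups alone (0.051). SLC1A4 had 272, 255 and 258 in withdrawn K89E arrays against 274, 307 and 363 in withdrawn empty vector arrays, and was not called (-0.26, limma adjusted p = 0.068). It was called without empty vector withdrawn replicate 1 (adjusted p = 0.0125) and without the dimmest 33.3% of genes (0.0487).

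Among enzymes and synthetases the differences were smaller. PHGDH was lower in K89E cells after withdrawal (-0.18, SE 0.05, limma adjusted p = 0.024) and not called with GM-CSF (-0.15, limma adjusted p = 0.086), where it was called without K89E withdrawn replicate 1 (0.0264). The call after withdrawal was lost without replicate 2 or 3 of either withdrawn group (adjusted p = 0.0777 to 0.098). AARS was lower by 0.15 after withdrawal (log2 difference -0.15, SE 0.04, limma adjusted p = 0.010) and 0.13 with GM-CSF (log2 difference -0.13, SE 0.04, limma adjusted p = 0.030). With GM-CSF its call was lost without any 1 empty vector GM-CSF array or K89E GM-CSF replicate 2 or 3 (0.0544 to 0.143).

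With GM-CSF kept, WARS was above its empty vector level in K89E cells (0.20, SE 0.04, limma adjusted p = 0.0036), at 1.15 times the empty vector level. After withdrawal the difference was 0.11 (limma adjusted p = 0.083) and was called without replicate 1 of withdrawn K89E (0.0377) or withdrawn empty vector cells (0.0278). CEBPG was lower with GM-CSF (-0.15, SE 0.04, limma adjusted p = 0.036), a call lost without any 1 empty vector GM-CSF array or K89E GM-CSF replicate 2 or 3 (0.0771 to 0.124). After withdrawal its difference was -0.12 (limma adjusted p = 0.081), called without replicate 1 of withdrawn K89E (0.0225) or withdrawn empty vector cells (0.0299). ATF4 itself had differences of -0.05 (95% interval -0.16 to 0.06) after withdrawal and -0.02 (95% interval -0.13 to 0.10) with GM-CSF.

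**Figure D4:**
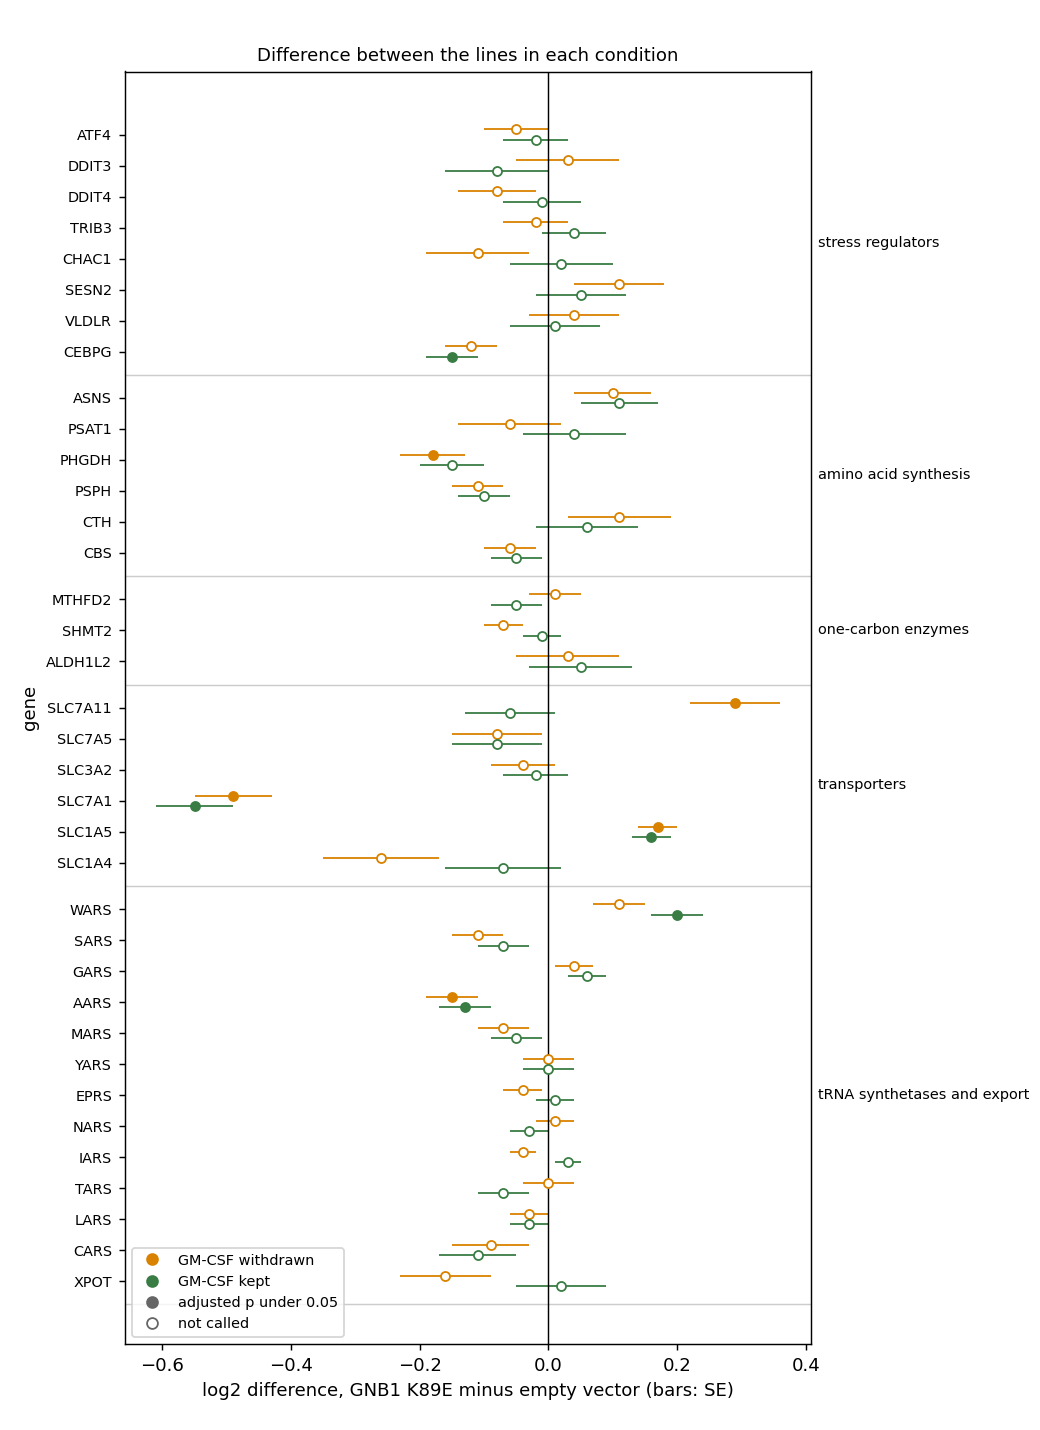
Log2 difference between the lines (K89E minus empty vector, bars are SE) for each of the 36 genes, after withdrawal above and with GM-CSF below in each row, filled where called. Most points lie near 0, SLC7A1 lies at -0.49 and -0.55, and SLC7A11 is right of 0 after withdrawal only, at 0.29.

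Whether the withdrawal response differed between the lines was tested directly, as the K89E response minus the empty vector response. By limma, 0 of the 36 genes were called, against 0.0682% of all genes. At an unadjusted p under 0.05 there was 1, SLC7A11, whose difference of 0.35 in log2 units (SE 0.10, 95% interval 0.14 to 0.56, limma adjusted p = 0.49) did not pass. For MARS the interval of the difference was -0.12 to 0.09, for SLC1A5 -0.09 to 0.12, for GARS -0.11 to 0.06 and for SLC7A5 -0.21 to 0.22. The median difference over the set was -0.014.

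In the withdrawn K89E group, 2 arrays stood differently in the set than in the table. Replicate 1 of withdrawn K89E cells was the highest of its group for 22 of the 36 genes and the lowest for 5, where it was the highest for 32.2% and the lowest for 33.1% of all genes. Replicate 2 was the lowest for 19 of the 36 and the highest for 7, where it was the lowest for 29.0% and the highest for 41.5% of all genes. On withdrawal in K89E cells 24 genes fell without replicate 1, 21 without replicate 2 and 20 without replicate 3, against 25 with all arrays. Without K89E GM-CSF replicate 1 or 2, 21 fell as well. The part of these arrays in the single results was not tested beyond leaving each out.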

How the data were processed

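Labelled cRNA of 12 samples was hybridised to arrays, 1 per sample. The authors deposited normalized intensities on a linear scale, 1 row per Ensembl gene ID, from 9.31 to 17476. RMA is named in the submitters' processing notes. The sources used here name no array type, probe set definition, build, batch or date. Symbols of the 36 genes come from the list that defines the set, and all 36 symbols or their synonyms are in the RefSeq table. How probe sets treat the pseudogenes that this table lists for 12 of them is not given.

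Intensities were converted to log2 with no pseudocount and tested with limma 3.58.1 in R 4.3.3 on all 12 arrays and 21996 genes, with 1 mean per group and an intensity trend of the prior variance. Tests were 2-sided with Benjamini-Hochberg adjustment per comparison, with 0.05 as the threshold for calling a gene. The procedure was also run on simulated data with independent noise in each gene and array. Its outcome is not given here, and no result rests on it. Genes, lists and tests were chosen with earlier results of these data known. Values in every array were to be given for ATF4, genes called in the difference of responses and up to 6 genes per direction with the largest called change in each other comparison; those of TRIB3, CHAC1, ASNS, SHMT2, GARS, XPOT, DDIT4 and SLC1A4 were added after their values were seen. Lists of other pathway genes and of cell markers need symbols for other IDs and were not analysed here. The number of arrays limits the precision, and p-values cover the spread between these samples. Promoter sequences are from RefSeq, GRCh38.p14.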

Additional observations from a re-analysis of the deposited data

How the results depend on the processing

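Alternatives changed 1 choice at a time: quantile normalization, arrays centred on their medians, limma's array weights, a fit with the dimmest 33.3% of genes removed, a prior variance with no intensity trend, a pseudocount of 16, only the compared groups (not possible for the difference of responses), and each array omitted in turn. On withdrawal, 14 genes fell in both lines under every one of these: PSAT1, PHGDH, SLC7A11, SLC7A5, SLC3A2, SLC7A1, SLC1A5, CBS, SHMT2, GARS, MARS, YARS, NARS and TARS. The share of all genes that met the same rule is not given here, so this count is not set against the table. Called genes numbered 21 to 25 in K89E and 18 to 24 in empty vector cells with all arrays, and 21 to 25 and 16 to 23 with 1 array omitted. With all arrays, some alternative called DDIT4 higher and SESN2, MTHFD2, IARS and XPOT lower on withdrawal in empty vector cells, and SLC1A4, CEBPG, WARS (after withdrawal) and PHGDH (with GM-CSF) between the lines. Between the lines, the 5 called after withdrawal became 3 with only the compared groups, where the cause was not tested. They became 4 to 8 with 1 array omitted, 8 being without empty vector withdrawn replicate 1. After withdrawal, 7 were called with array weights and 6 without the dimmest 33.3% of genes. With GM-CSF, 6 were called with only the compared groups and 6 with array weights. The 5 with GM-CSF became 2 with no intensity trend, where the cause was not tested, and 2 to 6 with 1 array omitted: 2 without K89E GM-CSF replicate 2, and 3 without K89E GM-CSF replicate 3 or any 1 empty vector GM-CSF array. The difference of responses was called for 0 genes throughout. With all arrays kept, some alternative ended the withdrawal calls of PSPH, CEBPG, EPRS and IARS in K89E cells and of PSPH, WARS and SARS in empty vector cells, and the line differences of PHGDH and SLC7A11 after withdrawal and of SLC1A5, CEBPG and AARS with GM-CSF.

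Signs turned only for changes that were not called. LARS on withdrawal was 0.02 in K89E and 0.01 in empty vector cells after quantile normalization. With 1 array omitted, the withdrawal change in empty vector cells ranged from -0.03 to 0.17 for SLC1A4 and from -0.00 to 0.07 for VLDLR. The line difference after withdrawal ranged from -0.15 to 0.03 for PSAT1 and from -0.11 to 0.03 for SLC3A2, and with GM-CSF from -0.06 to 0.04 for ATF4 (0.02 without empty vector replicate 3) and from -0.05 to 0.01 for SLC3A2 (0.00 without empty vector replicate 2). Line differences of further genes that were not called also turned sign, and not all are listed. Over all alternatives, that of CHAC1 with GM-CSF ranged from -0.06 to 0.09. For DDIT3 after withdrawal the range was -0.02 to 0.11. The median of all genes moved by less than 0.1 under either scaling.

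Equal replicate numbers were not treated as pairs in the main fit. Over all groups, same-numbered arrays had correlations of deviations from -0.201 to 0.233, and others from -0.21 to 0.2. Within a line, same-numbered withdrawn and GM-CSF arrays correlated at 0.0456, 0.0802 and 0.233 in K89E cells. In empty vector cells the values were 0.0514, 0.0542 and 0.092. These values do not decide whether the samples were paired. With the replicate block 24 genes were called for withdrawal in K89E and 20 in empty vector cells, 5 between the lines after withdrawal, 4 with GM-CSF, and 0 for the difference.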

Other observations

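In K89E cells the 3 replicates stood in the same order in withdrawn and GM-CSF arrays for 4 of the 6 transporters, namely SLC7A5, SLC3A2, SLC7A1 and SLC1A4, with replicate 1 the highest and replicate 2 the lowest in each. Over the set this held for 9 of 36 genes in K89E cells, against 20.1% of all genes, and for 8 of 36 in empty vector cells, against 18.5% of all genes, where SLC7A11 was the 1 transporter. Deviations of same-numbered K89E arrays over all genes correlated at 0.0456, 0.0802 and 0.233. The pattern was noticed in the data and has no test.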
